A study of Mus musculus with 9 samples.

Results

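The genes described here are those of antigen presentation by the major histocompatibility complex, which in the mouse is named H2. Every gene of the deposited table whose symbol starts with H2- was taken, together with B2m, Tap1, Tap2, Tapbp, Tapbpl, Nlrc5, Ciita, Cd74 and Erap1, which gave 41 of 30128 genes. They fall into 22 class I heavy chain genes and pseudogenes, 7 genes whose products work with class I, 11 class II genes, and H2-Ke6, a hydroxysteroid dehydrogenase that carries an H2 name only because it lies in the region. The values came from messenger RNA of left ventricular tissue, 9 mouse libraries in 3 groups of 3. Libraries labelled USP28 virus came from db/db mice given adeno-associated virus serotype 9 whose cargo was the gene of the deubiquitinating enzyme USP28, driven in cardiomyocytes by the promoter of cardiac troponin T (cTnT). Libraries labelled null virus came from db/db mice given the same serotype under the label AAV9_null. The control libraries came from wild-type mice, with no virus in their labels. The db/db mouse lacks a working long form of the leptin receptor and becomes obese and diabetic. The labels give no age, sex or strain, and the wild-type animals differed from the db/db animals in both genotype and virus, so those effects cannot be told apart. H2 genes are among the genes that differ most between mouse strains, and a strain difference between the groups, if there is one, cannot be told apart from genotype either. A haplotype unlike the annotated one can also change which H2 gene a read is assigned to, so the levels of single H2 genes and their shares carry that limit, and its part in them was not tested.

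Class I molecules are a heavy chain bound to beta-2 microglobulin (B2m), and they show peptides from the cell's own proteins to CD8 T cells. The peptides are cut by the proteasome, pumped into the endoplasmic reticulum by the transporter made of Tap1 and Tap2, trimmed by Erap1 and loaded with the help of tapasin (Tapbp). Nearly all nucleated cells carry class I, cardiomyocytes at low levels and endothelial cells at higher ones. Class II molecules show peptides from outside the cell to CD4 T cells, and in the resting heart they are known mainly from macrophages and dendritic cells. Nlrc5 is the master coactivator of class I genes and Ciita that of class II genes.

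Between 35970332 and 56497662 reads lay behind each library, and the limit that a count of 0 allows, 3 reads, came to 0.0531 to 0.0834 CPM by library (counting error only). Null virus replicate 1 stood apart, with a mean absolute departure of its log2 values from the group mean of 0.33, while the other libraries had 0.15 to 0.21. Usp28 itself was at 9.71, 11.2 and 11.3 scaled RPKM in the libraries labelled USP28 virus, 10.0, 7.56 and 7.84 in libraries with null virus and 12.6, 13.3 and 13.8 in control libraries. The libraries labelled USP28 virus overlapped the null virus libraries and lay below control, so the level of Usp28 does not show the overexpression that the label names, and every direction given below for those libraries rests on the label. Neither the labels nor the table say whether transcripts of the virus could be counted under Usp28. Cardiomyocyte markers summed to 24988 to 38889 scaled RPKM over the 9 libraries, as in heart muscle. Lepr, the gene mutated in db/db mice, was too low to be tested. Scaled RPKM is reads per kilobase of gene length, brought to a common scale across libraries by a trimmed mean. A gene is said to have risen or fallen where limma, fitted to log2(scaled RPKM + 0.1) of all 14104 genes with 0.5 RPKM in at least 3 libraries, gave an adjusted p below 0.05. Of the 41 genes, 26 reached that level: 13 heavy chain genes, the 7 partner genes, 5 class II genes and H2-Ke6.

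In null virus hearts the class I heavy chain genes together stood at 206% of the control level. Summed over the 22 genes, heavy chain transcripts were at 267, 246 and 240 scaled RPKM in null virus libraries, against 116, 134 and 116 in control libraries. Of the 13 heavy chain genes tested, 10 rose, 0 fell and 3 did not pass, while 10.2% of all genes tested rose and 12% fell in the same comparison. The median log2 difference of the 13 was 1.07, beside 0.01 over all genes tested. The groups did not overlap, with null virus above control, for 10 of the 13, where 19.7% of all genes tested lay above without overlap. RNA of whole tissue cannot tell more RNA per cell from a larger number of cells of a type.

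H2-K1 and H2-D1, the classical class I chains that present most peptides, were the most abundant of the 22 per kilobase. H2-K1 (chr17:33996017-34000333, minus strand, GRCm38) was at 105, 98.8 and 88.5 scaled RPKM in libraries labelled USP28 virus, 104, 85.1 and 81.2 in null virus libraries and 41.2, 48.0 and 39.2 in control libraries. All 6 db/db libraries lay above all 3 control libraries, and the db/db groups overlapped each other. The log2 difference of H2-K1 between null virus and control was 1.07 (SE 0.13, adjusted p = 0.0016). H2-D1 (chr17:35262730-35267499, plus strand) was at 87.4, 82.3 and 76.4 scaled RPKM in libraries labelled USP28 virus, 81.4, 79.3 and 76.2 in null virus libraries and 40.0, 45.2 and 43.0 in control libraries. It rose by a log2 difference of 0.89 (SE 0.09, adjusted p = 0.0010) in null virus hearts. The 2 coding sequences are 91.5% identical. As exact matches, 100% of the 150-base windows of H2-K1 and 98.7% of those of H2-D1 occur in no other annotated gene. This does not show how reads with mismatches were assigned.

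**Figure D1:**
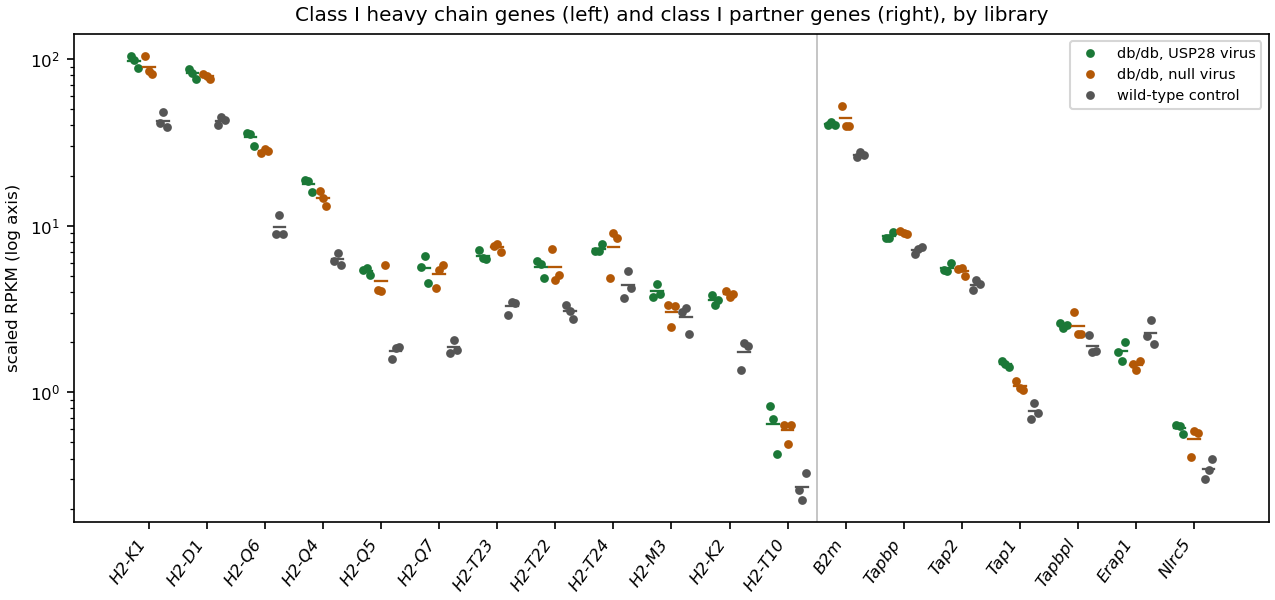
Level of 12 of the 13 class I heavy chain genes tested (left of the line) and 7 partner genes (right), in scaled RPKM on a log axis. Each library has 1 point, with a bar at the mean of 3 libraries. H2-M6-ps, at log2 -0.62 between null virus and control (limma, adjusted p = 0.25), is not drawn. For H2-K1 the 6 db/db libraries lie between 81.2 and 105, above the 39.2 to 48.0 of control, and Erap1 is the partner gene whose null virus points lie below control.

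The nonclassical genes of the Q cluster, whose products include the Qa-2 antigens, had the highest log2 differences of the 13. H2-Q6 (chr17:35424850-35430055, plus strand) was at 36.2, 35.4 and 30.2 scaled RPKM in libraries labelled USP28 virus, 27.4, 29.0 and 28.3 in null virus libraries and 8.94, 11.6 and 8.87 in control libraries. The 3 groups of H2-Q6 did not overlap, and its null virus mean was 289% of the control mean (log2 difference 1.53, SE 0.12, adjusted p = 0.00049). H2-Q7 (chr17:35439155-35443773, plus strand) was at 5.67, 6.58 and 4.55 scaled RPKM in libraries labelled USP28 virus, 4.22, 5.404 and 5.84 in null virus libraries and 1.72, 2.06 and 1.81 in control libraries. Its log2 difference between null virus and control was 1.41 (SE 0.17, adjusted p = 0.0014), and every db/db library lay above every control library. H2-Q4 was at 18.8, 18.5 and 15.8 scaled RPKM in libraries labelled USP28 virus, 16.1, 14.6 and 13.1 in null virus libraries and 6.11, 6.90 and 5.81 in control libraries (null virus against control log2 1.20, SE 0.12, adjusted p = 0.00088). H2-Q5, annotated as a polymorphic pseudogene, was at 5.39, 5.54 and 5.08 scaled RPKM in libraries labelled USP28 virus, 4.13, 4.07 and 5.81 in null virus libraries and 1.59, 1.86 and 1.88 in control libraries (log2 1.33, SE 0.15, adjusted p = 0.0011). For both genes the control libraries were the 3 lowest. H2-Q6 and H2-Q7 are 95.4% identical over their coding sequences and H2-Q5 and H2-Q7 96.6%. As exact matches, 94.0% of the windows of H2-Q6 and 94.1% of those of H2-Q7 are found in no other gene. A read with mismatches could still be assigned to another of these genes, so how the counting divided reads among them is uncertain.

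The T genes encode further nonclassical chains. H2-T23, whose product Qa-1 shows leader peptides of other class I chains to receptors of natural killer cells, was at 7.16, 6.36 and 6.31 scaled RPKM in libraries labelled USP28 virus, 7.52, 7.74 and 6.998 in null virus libraries and 2.90, 3.50 and 3.46 in control libraries. Its null virus level was above control by log2 1.15 (SE 0.11, adjusted p = 0.00072), with no overlap between db/db and control libraries. H2-T22, a ligand of some gamma delta T cells, was at 6.14, 5.88 and 4.85 scaled RPKM in libraries labelled USP28 virus, 7.30, 4.72 and 5.06 in null virus libraries and 3.35, 3.10 and 2.74 in control libraries (null virus against control log2 0.85, SE 0.17, adjusted p = 0.011). H2-T10, annotated as a polymorphic pseudogene and 96.3% identical to H2-T22 over the coding sequence, was the lowest gene that passed. It was at 0.833, 0.687 and 0.425 scaled RPKM in libraries labelled USP28 virus, 0.640, 0.492 and 0.640 in null virus libraries and 0.259, 0.226 and 0.330 in control libraries (log2 0.90, SE 0.26, adjusted p = 0.039). The call of H2-T10 was lost when any 1 of the null virus or control libraries, or USP28 virus replicate 2, was left out (adjusted p = 0.053 to 0.12). Both T genes had their 3 lowest values in control. H2-K2, a transcribed pseudogene beside H2-K1, was at 3.82, 3.36 and 3.59 scaled RPKM in libraries labelled USP28 virus, 4.08, 3.71 and 3.89 in null virus libraries and 1.36, 1.99 and 1.91 in control libraries (log2 1.13, SE 0.14, adjusted p = 0.0018). H2-T24, H2-M3 and H2-M6-ps did not pass in this comparison, at log2 0.71, 0.09 and -0.62 (adjusted p = 0.056, 0.72 and 0.25). H2-M3, which presents peptides that start with formylmethionine, had overlapping groups, at 3.32, 2.46 and 3.28 scaled RPKM in null virus libraries and 3.03, 3.23 and 2.24 in control libraries.

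The promoters of the genes that rose were read to see what they share. The choice of members made no direct use of sequence, but many heavy chain genes are alike in sequence. Over their coding sequences H2-K1 and H2-D1 are 91.5% identical, and H2-Q6 and H2-Q7 95.4%. Their promoter windows are therefore not independent of each other. RefSeq windows from 250 bases before to 50 bases after the transcript start (GRCm38.p6) were matched for 27 of the 41 genes, 16 of them tested. Classical class I promoters are known for an enhancer that holds a site for NF-kB beside an interferon-stimulated response element. The windows of H2-K1 (chr17:34000284-34000583, minus strand) and H2-Q6 (chr17:35424600-35424899, plus strand) are shown as the most abundant chain and the one with the highest log2 difference, those of H2-T23 (chr17:36032652-36032951, minus strand) and B2m (chr2:122147437-122147736, plus strand) as genes that rose with another arrangement, and that of H2-Eb1 (chr17:34305617-34305916, plus strand) as a class II gene that did not pass. Each runs 5′ to 3′ on the strand of its gene, with capitals on every match to GGGATTCCC (NF-kB site), GAAANNGAA or GAANNGAAA (interferon-stimulated response element), TTCNNNGAA (gamma-activated sequence) and the letters ATTGG of the box named after its other strand, CCAAT. Both strands were searched, and matches of the 2 interferon forms may overlap.
H2-K1: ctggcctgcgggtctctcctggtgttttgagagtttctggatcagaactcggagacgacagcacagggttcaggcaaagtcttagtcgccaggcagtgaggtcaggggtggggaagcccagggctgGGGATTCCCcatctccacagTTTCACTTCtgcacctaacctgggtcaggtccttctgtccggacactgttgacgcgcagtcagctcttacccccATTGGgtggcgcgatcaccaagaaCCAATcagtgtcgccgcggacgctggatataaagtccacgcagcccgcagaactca
H2-Q6: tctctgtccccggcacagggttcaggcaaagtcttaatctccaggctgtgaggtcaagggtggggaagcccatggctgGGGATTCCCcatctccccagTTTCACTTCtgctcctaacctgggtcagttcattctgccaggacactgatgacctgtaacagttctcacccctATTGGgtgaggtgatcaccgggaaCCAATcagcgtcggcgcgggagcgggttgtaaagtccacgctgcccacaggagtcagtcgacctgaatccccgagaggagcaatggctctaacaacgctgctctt
H2-T23: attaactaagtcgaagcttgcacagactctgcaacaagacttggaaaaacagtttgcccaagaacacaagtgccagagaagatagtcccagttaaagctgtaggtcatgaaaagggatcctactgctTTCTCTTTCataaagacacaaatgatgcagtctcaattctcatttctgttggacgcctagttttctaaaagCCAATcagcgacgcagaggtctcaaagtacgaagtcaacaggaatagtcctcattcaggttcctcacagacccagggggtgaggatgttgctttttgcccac
B2m: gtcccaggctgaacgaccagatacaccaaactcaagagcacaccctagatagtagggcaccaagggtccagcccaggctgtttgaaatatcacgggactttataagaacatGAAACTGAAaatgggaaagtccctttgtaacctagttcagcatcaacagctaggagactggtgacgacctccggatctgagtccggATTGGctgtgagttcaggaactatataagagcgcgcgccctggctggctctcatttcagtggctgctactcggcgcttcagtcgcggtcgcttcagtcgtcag
H2-Eb1: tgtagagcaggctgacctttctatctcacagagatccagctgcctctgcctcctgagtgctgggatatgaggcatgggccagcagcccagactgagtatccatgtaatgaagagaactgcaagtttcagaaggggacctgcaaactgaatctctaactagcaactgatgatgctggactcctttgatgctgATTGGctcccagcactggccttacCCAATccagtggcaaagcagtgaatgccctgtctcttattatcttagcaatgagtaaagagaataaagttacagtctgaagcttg

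The exact letters GGGATTCCC stood in 4 of the 8 tested heavy chain promoters, H2-K1, H2-D1, H2-Q6 and H2-Q7. They stood in 0.353% of 32851 RefSeq promoter windows. Other spellings of an NF-kB site were not searched, so the remaining windows are not shown to lack one. The window of H2-Q4, for one, holds GGGATTTCCC shortly before its interferon motif. In H2-K1 the run GGGATTCCC began 124 bases before the start and the interferon motif 104 bases before, 20 bases further on. The same step of 20 bases was found in H2-D1 and H2-Q6, and 19 in H2-Q7. GAAANNGAA was in 2 of the 8 (H2-T22 and H2-T23) and in B2m and Erap1, beside 8.56% of all windows. GAANNGAAA, added after the promoters had been read, was in 6 of the 8 (H2-D1, H2-K1, H2-M3, H2-Q4, H2-Q6 and H2-Q7), beside 7.52% of all windows. H2-M3 holds GAANNGAAA too and did not pass, and its window was the only one of the 8 with TTCNNNGAA, which 8.30% of all windows have. The CCAAT box was in 8 of 8 heavy chain windows and 3 of 3 tested class II windows, beside 37.4% of all, and those 3 class II windows held none of the other motifs. Tap1 and Tapbp held the CCAAT box alone. A match is a run of letters in these windows and not a measured binding site. Windows of related heavy chain genes are not separate draws. The shares over all windows thus do not say how often related genes would share a motif.

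Of the 7 genes whose products work with class I, 3 rose in null virus hearts, 1 fell and 3 did not pass, beside the 10.2% and 12% of all genes tested that rose and fell. B2m (chr2:122147686-122153083), the light chain of every class I molecule, was at 40.4, 42.1 and 40.4 scaled RPKM in libraries labelled USP28 virus, 52.6, 39.7 and 39.8 in null virus libraries and 25.9, 27.9 and 26.5 in control libraries. It rose by log2 0.71 (SE 0.12, adjusted p = 0.0052), with null virus replicate 1 the highest of the 9. Tap1 (chr17:34187553-34197225), one chain of the peptide pump, was at 1.54, 1.48 and 1.42 scaled RPKM in libraries labelled USP28 virus, 1.16, 1.07 and 1.03 in null virus libraries and 0.693, 0.865 and 0.752 in control libraries. The 3 groups of Tap1 did not overlap, and null virus was above control by log2 0.45 (SE 0.12, adjusted p = 0.032). Tapbp (chr17:33915899-33929288) was at 8.44, 8.43 and 9.13 scaled RPKM in libraries labelled USP28 virus, 9.29, 9.02 and 8.93 in null virus libraries and 6.72, 7.30 and 7.45 in control libraries (log2 0.34, SE 0.08, adjusted p = 0.022). The log2 differences of Tap1 and Tapbp were lower than those of the 10 heavy chain genes that rose, and both genes failed to pass in several alternatives. With 1 library left out, Tap1 did not pass without any 1 of the USP28 virus replicates, null virus replicate 2, or control replicate 1 or 3 (adjusted p = 0.054 to 0.096). Tapbp did not pass without null virus replicate 2 or any 1 of the control libraries (adjusted p = 0.052 to 0.07).

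Erap1 (chr13:74639872-74691875), the aminopeptidase that trims peptides to class I length, went the other way. It was at 1.74, 1.54 and 2.01 scaled RPKM in libraries labelled USP28 virus, 1.48, 1.36 and 1.55 in null virus libraries and 2.19, 2.71 and 1.95 in control libraries. Null virus libraries lay below control without overlap, as did 21.6% of all genes tested, and Erap1 fell by 0.60 on the log2 scale (SE 0.15, adjusted p = 0.023). The call of Erap1 was lost without the filter, with 2 groups alone, and without null virus replicate 2 or control replicate 1 or 2 (adjusted p = 0.052 to 0.082 with 1 library left out). The other partner genes did not pass. Tap2, the other chain of the pump, was at 5.44, 5.33 and 6.01 scaled RPKM in libraries labelled USP28 virus, 5.53, 5.58 and 4.96 in null virus libraries and 4.10, 4.73 and 4.46 in control libraries (log2 0.27, adjusted p = 0.082). Tapbpl, a tapasin-related peptide editor, was at log2 0.38 (adjusted p = 0.091). Nlrc5 (chr8:94434356-94527272) was at 0.637, 0.629 and 0.559 scaled RPKM in libraries labelled USP28 virus, 0.410, 0.585 and 0.569 in null virus libraries and 0.3002, 0.339 and 0.396 in control libraries. Every db/db library of Nlrc5 lay above control, but at log2 0.47 (SE 0.20, adjusted p = 0.12) between null virus and control it did not pass. H2-Ke6, the dehydrogenase, was at 21.4, 17.95 and 22.5 scaled RPKM in libraries labelled USP28 virus, 34.1, 20.6 and 20.2 in null virus libraries and 14.7, 13.5 and 16.3 in control libraries. It rose by log2 0.70 (SE 0.20, adjusted p = 0.037) in null virus hearts, with replicate 1 the highest, and did not pass without USP28 virus replicate 1 or 3 or any 1 of the control libraries (adjusted p = 0.055 to 0.12). Of its windows, 54.5% also occur in other gene models, so its count is uncertain.

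In the make-up of the heavy chain RNA, the shares of some genes differed between db/db and control libraries. H2-Q6 took 12.6%, 12.8% and 12.1% of the summed heavy chain level in libraries labelled USP28 virus, 10.3%, 11.8% and 11.8% in null virus libraries and 7.72%, 8.62% and 7.61% in control libraries. H2-D1 took 30.3%, 29.8% and 30.7% in libraries labelled USP28 virus, 30.5%, 32.2% and 31.8% in null virus libraries and 34.5%, 33.7% and 36.9% in control libraries. The share of H2-Q6 was thus higher, and that of H2-D1 lower, in every db/db library than in every control library. H2-Q6 had the highest log2 difference of the heavy chain genes tested, so its higher share is not a separate result. H2-K1 had overlapping shares, 35.6% to 36.2% in libraries labelled USP28 virus, 33.9% to 39.0% with null virus and 33.7% to 35.8% in control. Heavy chain RNA per B2m RNA, both per kilobase, was 7.14, 6.57 and 6.17 in libraries labelled USP28 virus, 5.07, 6.21 and 6.03 in null virus libraries and 4.47, 4.81 and 4.40 in control libraries, again with control lowest throughout. These shares and ratios are given as descriptions with no test, and the assignment of reads between H2 genes can shift them.

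**Figure D2:**
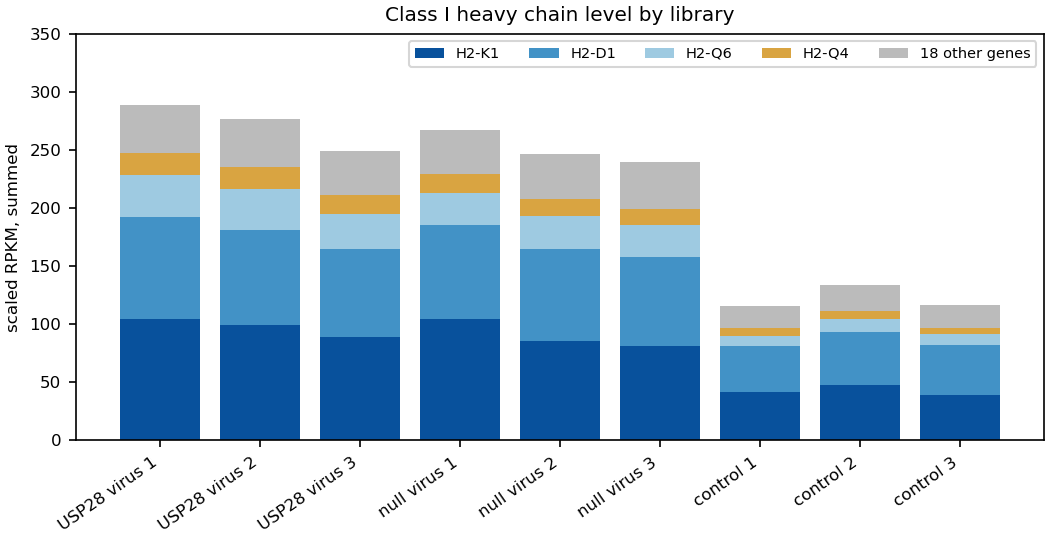
Summed level of the 22 class I heavy chain genes in each library in scaled RPKM, stacked by gene, 1 bar per library. The bars reach 249 to 289 in libraries labelled USP28 virus, 240 to 267 with null virus and 116 to 134 in control, and H2-K1 and H2-D1 fill 65.5% to 70.6% of each.

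No class II gene passed in null virus against control. Of the 5 tested, 0 passed in limma, beside 22.2% of all genes tested, and 0 were at an unadjusted p below 0.05, beside 5339 of 14104. All 5 had overlapping groups, where 19.7% of all genes tested lay above control and 21.6% below without overlap. With 5 genes, counts of 0 are little to set against these shares, and class II was not tested against class I. Their median log2 difference was -0.26. Summed over the 11 class II genes, the level was 60.0, 46.0 and 26.1 scaled RPKM in null virus libraries and 33.7, 54.1 and 56.9 in control libraries. The highest and the lowest of these 6 values were both null virus libraries. In the libraries labelled USP28 virus the sum was 52.6, 54.8 and 52.4, a narrow range inside that of both other groups.

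H2-Ab1 (chr17:34263209-34269418), the beta chain of the I-A molecule, was at 17.7, 21.6 and 19.1 scaled RPKM in libraries labelled USP28 virus, 22.98, 16.04 and 8.27 in null virus libraries and 12.7, 20.9 and 20.01 in control libraries. The log2 difference between null virus and control was -0.26, with a 95% interval of -1.03 to 0.50. H2-Aa, its alpha chain, was at 2.08, 2.07 and 1.78 scaled RPKM in libraries labelled USP28 virus, 2.64, 1.38 and 0.626 in null virus libraries and 1.44, 1.64 and 2.05 in control libraries (null virus against control log2 -0.32, interval -1.22 to 0.58). In both genes null virus replicate 1 was the highest library and replicate 3 the lowest. H2-Eb1, the beta chain of I-E, was at 15.0, 12.4 and 12.6 scaled RPKM in libraries labelled USP28 virus, 16.0, 11.1 and 6.99 in null virus libraries and 6.76, 12.2 and 13.1 in control libraries (log2 0.07, interval -0.66 to 0.79). Cd74, the invariant chain that guides class II to the endosome, was at 16.2, 16.9 and 17.3 scaled RPKM in libraries labelled USP28 virus, 16.6, 16.3 and 9.49 in null virus libraries and 11.4, 17.2 and 20.2 in control libraries (log2 -0.21, interval -0.78 to 0.36). All 4 intervals reach to both sides of 0 and are wide, so that these genes are not shown to be equal in the groups either. H2-DMb1, part of the DM peptide exchanger, was at log2 -0.47 (adjusted p = 0.25).

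**Figure D3:**
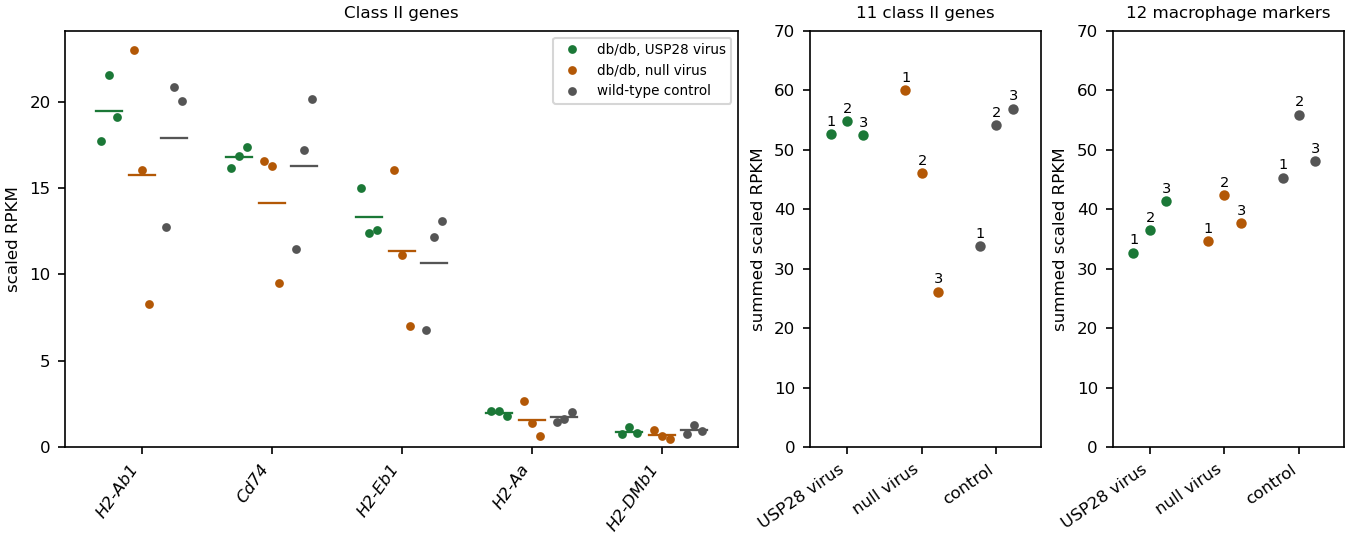
Scaled RPKM of the 5 class II genes tested (left), of the sum over the 11 class II genes (middle) and of the sum over 12 macrophage markers (right), with 1 point per library, a bar at the mean in the left panel and the replicate number beside each point in the others. Class II sums run from 26.1 to 60.0 with null virus, the widest range of the 3 groups.

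Ciita, the class II coactivator, was too low to be tested, at 0.235, 0.1004 and 0.265 scaled RPKM in libraries labelled USP28 virus, 0.208, 0.196 and 0.150 in null virus libraries and 0.206, 0.241 and 0.173 in control libraries. The 6 class II and 9 heavy chain genes that were not tested held at most 69 reads in any library. Of the 15, H2-DMa was the highest, at up to 0.410 scaled RPKM, and H2-Oa and H2-Q3 had 2 reads each over all 9 libraries.

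Markers of cells that carry these molecules were read from lists beside the genes, and their counts stand beside the 10.2% of all genes tested that rose and the 12% that fell. Macrophage markers summed to 34.6 to 42.4 scaled RPKM in null virus libraries and 45.3 to 55.9 in control libraries, and 3 of 11 tested fell (Cx3cr1, Cd68 and Mrc1) while 0 rose. Endothelial markers summed to 144 to 180 scaled RPKM in null virus libraries and 114 to 131 in control libraries, and 5 of 12 rose, among them Cldn5, Esam and Erg (log2 1.44, 0.86 and 0.59). Kdr and Emcn, which also mark endothelium, did not pass (log2 -0.47 and -0.07). Dendritic cell markers summed to 3.71 to 5.39 scaled RPKM in null virus libraries and 2.76 to 3.17 in control libraries. Of the 2 tested, Clec9a rose (log2 0.77, adjusted p = 0.033) and Zbtb46 did not pass (log2 0.24, adjusted p = 0.32). The others of that list were too low to be tested, among them Itgax, which lay below control without overlap. The 9 T and NK cell markers summed to 0.299 to 0.486 scaled RPKM in null virus libraries and 0.290 to 0.394 in control libraries, none was tested, Gzma was listed at 0 in all 6 and Nkg7 in the 3 control libraries. The 6 B cell markers summed to 0.620 to 1.28 scaled RPKM in null virus libraries and 1.21 to 1.44 in control libraries, with Cd79a listed at 0 in all 3 control libraries. Fibroblast markers summed to 75.3 to 86.4 scaled RPKM in null virus libraries and 77.5 to 94.8 in control libraries. Of the 8, 5 fell (Col3a1, Lum, Col1a2, Col1a1 and Postn). Tcf21, Dcn and Pdgfra, which also mark fibroblasts, did not pass (log2 0.68, 0.32 and 0.11), and Dcn makes up most of the sum. In null virus libraries the endothelial sums thus lay above control and the macrophage sums below it, each without overlap, and the part of these cells in the class I and class II values was not tested.

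Genes that feed class I were read from lists of the pathway. Among 5 immunoproteasome genes, 2 rose in null virus hearts and 3 did not pass. In lists this short, 1 or 2 calls are too few to judge against the 10.2% that rose and 12% that fell over all genes tested. The genes are therefore described singly here and nothing is read from the counts. Psmb8 was at 5.01, 4.59 and 3.90 scaled RPKM in null virus libraries and 2.81, 3.16 and 2.52 in control libraries (log2 0.65, SE 0.14, adjusted p = 0.012). Psmb9 was at 0.834, 0.858 and 0.931 scaled RPKM in null virus libraries and 0.519, 0.512 and 0.595 in control libraries (log2 0.60, SE 0.13, adjusted p = 0.014). Both encode inducible catalytic subunits and lie beside Tap1 and Tap2 in the H2 region. Psmb10, the third inducible subunit, lies on chromosome 8 and did not pass (log2 -0.35, adjusted p = 0.30). Of 6 endoplasmic reticulum folding genes, Uggt1 and Ganab, enzymes of glycoprotein quality control, fell (log2 -0.55 and -0.35, adjusted p = 0.031 and 0.039) and 0 rose. Of 4 class I-like genes tested outside the H2 names, Fcgrt, the neonatal Fc receptor that also pairs with B2m, rose (log2 0.44, adjusted p = 0.022).

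Upstream of these genes, the interferon gamma and NF-kB list had 1 riser and 2 fallers of 10 tested. Irf1, a transcription factor that acts on class I promoters, was at 4.85, 4.71 and 3.74 scaled RPKM in null virus libraries and 2.41, 3.38 and 3.48 in control libraries (log2 0.52, SE 0.16, adjusted p = 0.047). Ifngr2, a chain of the interferon gamma receptor, fell by 1.11 on the log2 scale (SE 0.13, adjusted p = 0.0015), and the kinase Jak1 fell by 0.36 (adjusted p = 0.046). Counts of 1 and 2 in 10 are near the shares over all genes tested, 10.2% and 12%. Of 9 class II processing genes, Ctsh and Ctsl rose and 2 fell, among them Lgmn (log2 0.62, 0.57 and -0.51). Of 7 class II promoter factors, Rfxank and Rfxap rose (log2 0.54 and 0.40), and 0 fell. These counts stand beside the same 10.2% and 12% over all genes tested. Of 3 costimulation genes tested, 0 passed in limma, beside 22.2% of all genes tested. Icosl alone was at an unadjusted p below 0.05, beside 5339 of 14104 genes. The lists are too short for their counts to be judged against these shares, and nothing is read from them.

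On chromosome 17, 35 of the 41 genes lie between 33915899 and 37483552 (GRCm38), among 207 other genes of which 101 were tested. Of those 101, 15 rose and 4 fell in null virus hearts, with a median log2 difference of 0.22, beside 10.2% and 12% of all genes tested. Psmb8 and Psmb9, which serve class I, are among the 15. So is Gm20496, whose start lies inside Psmb8 and whose log2 difference of 0.64 is near the 0.65 of Psmb8. The 15 need not be separate genes. Of the 552 genes tested on the rest of the chromosome 57 rose and 66 fell, with a median of 0.03. The highest log2 difference among the 101 was 1.12, for Gm11131, which starts beside H2-Q4. It was below those of the 4 heavy chain genes of the Q cluster, H2-T23 and H2-K2. It was above those of the other heavy chain genes, among them H2-K1 and H2-D1 (1.07 and 0.89). Whether reads of H2-Q4 (log2 1.20) are counted under Gm11131 was not tested. The class II genes of the span lay between -0.47 and 0.07.

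**Figure D4:**
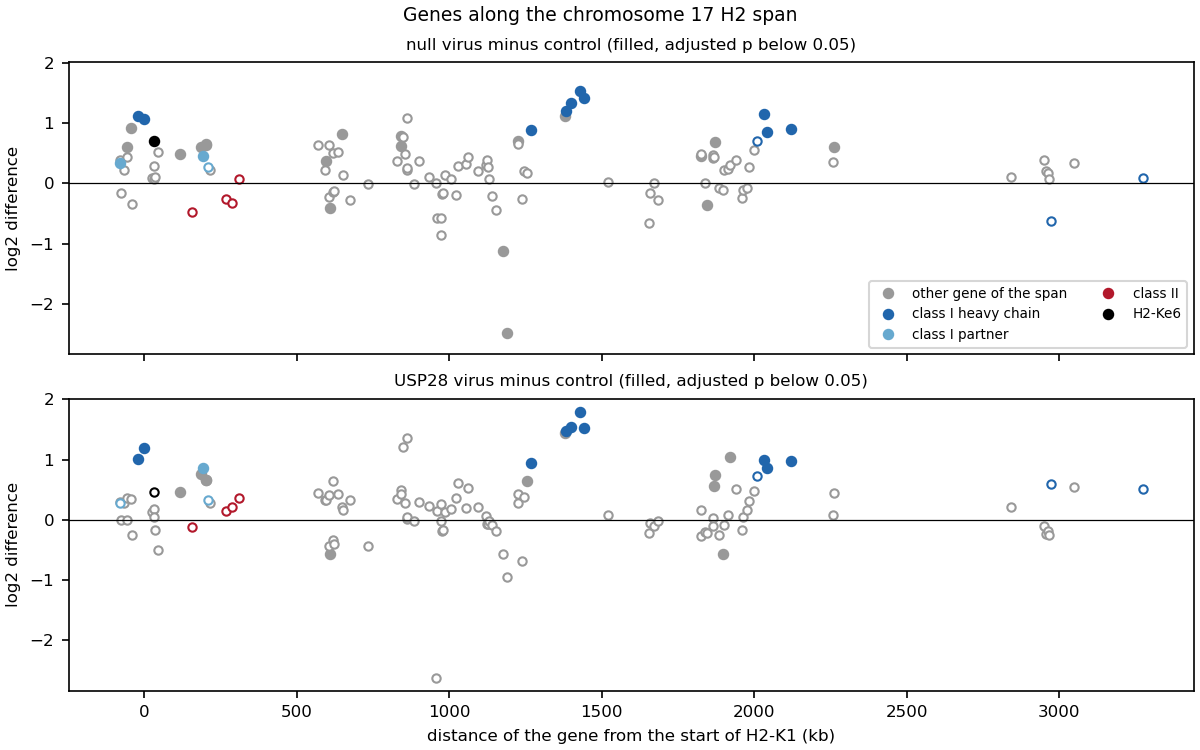
Log2 difference of each tested gene of the chromosome 17 span against control, null virus above and USP28 virus below, by distance in kb from the start of H2-K1; filled points passed. The heavy chain genes of the Q cluster lie at 1.20 to 1.53 with null virus, and the 4 class II genes shown lie between -0.47 and 0.07.

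Between the libraries labelled USP28 virus and the null virus libraries, which were both db/db, 0 of the 25 antigen presentation genes tested passed in limma, and 0 with voom weights on the recovered reads. The share over all genes was 0.425%, 60 genes in all. At an unadjusted p below 0.05 there were 4, Tap1, H2-Q4, H2-M3 and H2-M6-ps, each higher in the libraries labelled USP28 virus, beside 2355 of the 14104 genes tested in either direction, so that the count of 4 in 25 is near the background. The groups did not overlap, with USP28 virus above, for 4 genes, Tap1, H2-Q6, H2-M3 and H2-M6-ps, where 10.9% of all genes tested did so. The median log2 difference was 0.11 for heavy chains, 0.06 for partner genes and 0.34 for class II genes, beside -0.01 over all genes.

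For H2-K1 the log2 difference between libraries labelled USP28 virus and null virus was 0.11, with a 95% interval of -0.18 to 0.41, and for H2-D1 it was 0.05 (-0.16 to 0.27). B2m was at -0.09 (-0.36 to 0.18). A change of these genes as large as that between null virus and control lies outside those intervals. Tap1 was at 0.41 (0.14 to 0.69, adjusted p = 0.15), and Nlrc5 at 0.20 (-0.26 to 0.66). H2-M6-ps, a pseudogene, was at 1.47, 1.07 and 0.949 scaled RPKM in libraries labelled USP28 virus and 0.738, 0.243 and 0.436 in null virus libraries, from 46 to 85 and 10 to 23 reads (log2 1.21, SE 0.37, adjusted p = 0.16). Without null virus replicate 1 it passed, as the only one of the 25, where 914 of all 14104 genes tested passed. That 1 call is thus no more than the share over all genes gives.

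**Figure D5:**
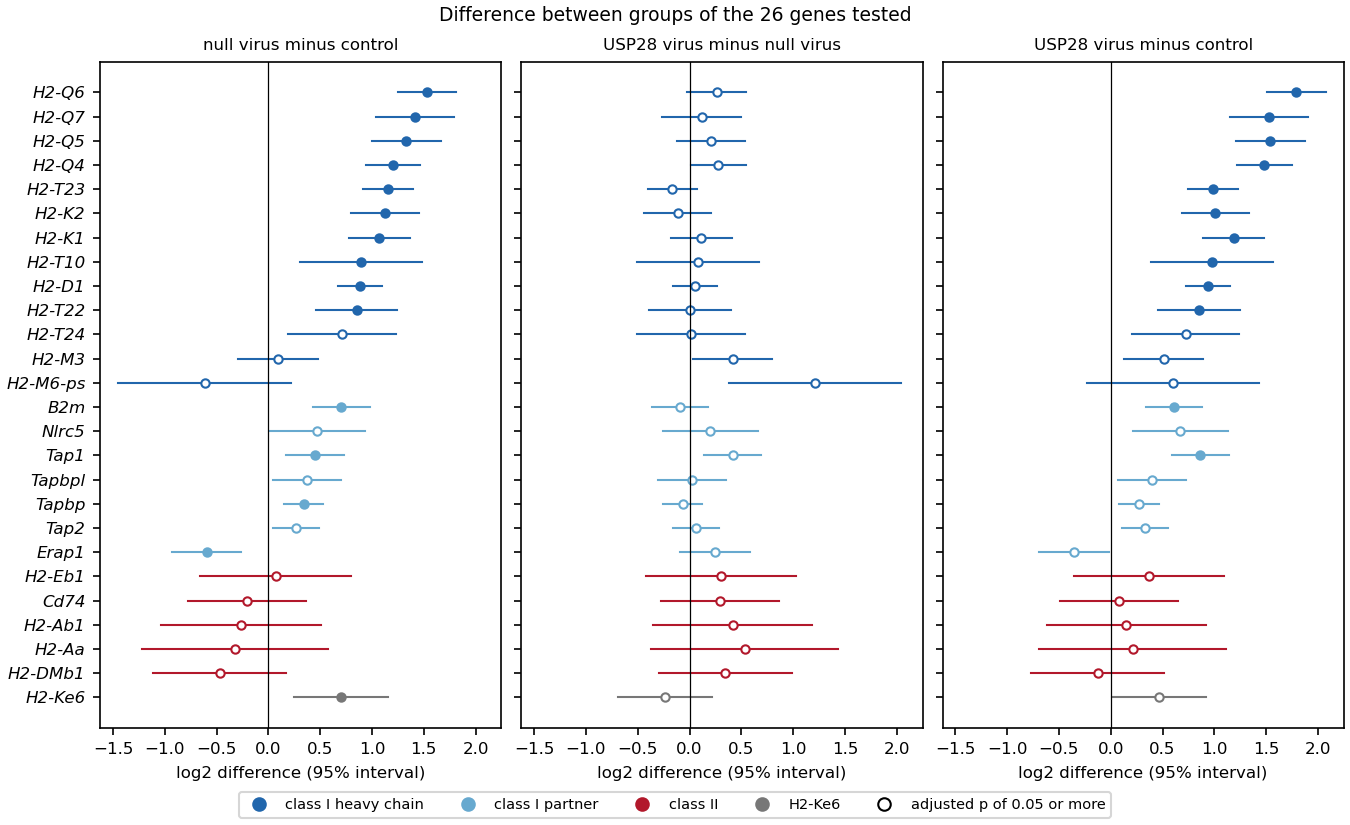
Log2 difference with its 95% interval for the 26 genes tested, null virus minus control (left), USP28 virus minus null virus (middle) and USP28 virus minus control (right); filled points passed. Heavy chain genes cluster at 0.85 to 1.53 among those that passed on the left, and 0 points are filled in the middle.

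Against control, the libraries labelled USP28 virus had 12 higher and 0 lower of the 25 antigen presentation genes, where 5.29% of all genes tested rose and 6.58% fell. This comparison and the one of null virus shared the control libraries, so the values are set side by side without a test. Heavy chain genes again had 10 higher of 13, with a median log2 difference of 0.99, and 12 of the 13 lay above control without overlap, beside 21.2% of all genes tested that lay above and 24.3% that lay below. H2-K1 was at log2 1.19 (SE 0.13, adjusted p = 0.0030), H2-D1 at 0.94 (SE 0.09, adjusted p = 0.0022), H2-Q4 at 1.48 and H2-Q6 at 1.79 (SE 0.12, adjusted p = 0.0013). H2-Q5 and H2-Q7 were at 1.54 and 1.53, H2-T23, H2-T22 and H2-T10 at 0.99, 0.85 and 0.98, and H2-K2 at 1.01. H2-T22 did not pass without USP28 virus replicate 1 or 2 or control replicate 2 or 3 (adjusted p = 0.059 to 0.084). H2-T10 did not pass without USP28 virus replicate 1 or 2, null virus replicate 2 or 3, or any 1 of the control libraries (adjusted p = 0.053 to 0.17).

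Among the partner genes, Tap1 (log2 0.86, SE 0.12, adjusted p = 0.0059) and B2m (0.61, SE 0.12, adjusted p = 0.016) rose against control in the libraries labelled USP28 virus. The call of B2m was lost without any 1 of the USP28 virus replicates and without control replicate 2 or 3 (adjusted p = 0.054 to 0.069). Tapbp (0.27, adjusted p = 0.066), Tap2 (0.33, adjusted p = 0.063), Nlrc5 (0.67, adjusted p = 0.063) and Erap1 (-0.35, adjusted p = 0.16) did not pass. Erap1 libraries labelled USP28 virus overlapped control, where null virus libraries did not. Of the class II genes, 0 of 5 passed in limma, beside 11.9% of all genes tested, and 0 were at an unadjusted p below 0.05, beside 3994 of 14104, with a median log2 difference of 0.15. Psmb8 and Psmb9 rose by log2 0.66 and 0.77 (adjusted p = 0.018 and 0.010), Irf1 by 0.69 (adjusted p = 0.027), and Cd274, a costimulation-list gene for an inhibitory ligand, by 0.75 (adjusted p = 0.044). Endothelial markers had 4 of 12 higher, beside 5.29% of all genes tested, at 153 to 169 scaled RPKM in all against 114 to 131 in control. Macrophage markers had 1 of 11 lower (Cx3cr1), a count near the 6.58% of all genes tested that fell. They summed to 32.7 to 41.3 scaled RPKM against 45.3 to 55.9 in control. The part of these cells in the antigen presentation values was not tested.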

How the data were processed

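In the authors' deposited table, 30128 genes have an RPKM value in each of 9 left ventricle libraries, that is, reads per kilobase brought to a common read total, and the unit was read from the values. Per the labels' protocols, polyadenylated RNA was made into directional libraries read from both ends. The tools named are HISAT2 and DESeq2, per the submitters' processing notes, which give the human build GRCh38. Symbols are those of the mouse, and 25445 spans are identical to GENCODE M21, whose build, GRCm38, is used for positions. How reads were counted, with which strand setting and how shared reads were handled, is not given in the sources used, so reads of overlapping or near-identical genes may be split between them.

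RPKM times length is a whole multiple of 1 step for 99.9839% of values above 0, within 0.01 reads, which gave the reads and depth behind each value. RPKM was scaled by a trimmed mean of M values (30% and 5% trimmed), and log2(scaled RPKM + 0.1) was fitted in limma 3.58.1 under R 4.3.3 (prior trended and robust, 1 fit of 3 groups). Log2 differences on that scale understate the change of low genes. P-values were adjusted by Benjamini-Hochberg over the 14104 genes with 0.5 RPKM or more in 3 libraries or more, with a threshold of 0.05. The fit was tested on simulated data. The labels do not say that replicates are separate animals, so p-values measure a spread that may be technical. No replicate pair agreed over the table: 795 to 981 genes of a pair had equal read counts above 0, with chi-square per degree of freedom from 19.1 to 144, the highest in pairs of null virus replicate 1.

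Values in every library are given for each member past the threshold in any comparison and for the main antigen presentation genes, other members by counts, and up to 3 past-threshold genes of each pathway or marker list. Members and lists were chosen with earlier results of these data known. Alternatives were other scalings, filters and pseudocounts, fits of 2 groups alone, a replicate block, voom on the recovered reads, and each library left out in turn. The values of 1 gene of the pathway lists are not reported here.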

Additional observations from a re-analysis of the deposited data

How the results depend on the processing

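In null virus against control, where 14 antigen presentation genes passed, the 18 alternatives gave 10 to 16, and 10 of the 14 passed in every one (H2-K1, H2-D1, H2-Q4, H2-Q5, H2-Q6, H2-Q7, H2-T23, H2-T22, H2-K2 and B2m). Tap1 and H2-T10 did not pass with library totals alone, without the filter or with the replicate block, and Erap1, Tapbp, Tap1 and H2-T10 did not pass with 2 groups alone, without null virus replicate 2 or without control replicate 1. In USP28 virus against control, where 12 passed, the range was 9 to 18, and 9 passed in every alternative (H2-K1, H2-D1, H2-Q4, H2-Q5, H2-Q6, H2-Q7, H2-T23, H2-K2 and Tap1). B2m, H2-T22 and H2-T10 lost that call without USP28 virus replicate 1 or 2 or control replicate 2 or 3, and B2m also without USP28 virus replicate 3. The 18 arose with 2 groups alone and without null virus replicate 1, each with Tapbp, Tap2, Tapbpl, Nlrc5, H2-T24 and H2-M3 added. In USP28 virus against null virus the count was 0 in all but 1 alternative, and 1 (H2-M6-ps) without null virus replicate 1, so that leaving out 1 library gave 0 to 1. Leaving out 1 library gave 10 to 14 and 9 to 18 in the other comparisons. With the replicate block the counts were 13, 11 and 0 for null virus against control, USP28 virus against control and USP28 virus against null virus. Same-numbered libraries had correlations of -0.03 to 0.06 in their departures from the group means, so the numbers do not pair the samples. Over all genes the counts moved by more than 1.5 times: 1457 to 4438 against 3135 in null virus against control, 367 to 4077 against 1674 in USP28 virus against control, and 0 to 914 against 60 in USP28 virus against null virus, each maximum without null virus replicate 1. Library totals alone moved the median of all genes by up to 0.09 on the log2 scale, and 66.4% of the calls in USP28 virus against control and 87.1% in USP28 virus against null virus were then higher, against 44.6% and 63.3%. Differences near 0 changed sign. With library totals alone, B2m and Tapbp were at 0.00686 and 0.0298 in USP28 virus against null virus, and with median of ratios H2-T22 was at -0.00364. With 1 library left out, the USP28 virus against null virus range was -0.151 to 0.0458 for B2m, -0.36 to 0.0136 for H2-Ke6, -0.0177 to 0.26 for H2-Q7, -0.0889 to 0.33 for H2-T10 and -0.11 to 0.19 for H2-T22. Against control it was -0.15 to 0.26 for Cd74 and -0.0750 to 0.28 for H2-Ab1 with USP28 virus, and -0.44 to 0.0431 for Cd74, -0.79 to 0.16 for H2-Aa, -0.60 to 0.13 for H2-Ab1 and -0.23 to 0.37 for H2-Eb1 with null virus. The interferon motif was in 2 of 8 tested heavy chain promoters as GAAANNGAA and in 6 as GAANNGAAA, a form chosen after seeing the data. The cause of these differences was not tested.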
